A study of Homo sapiens with 14 samples.

Results

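Sterol and fatty acid synthesis was followed through 34 genes of these pathways, chosen with earlier results of these data known. They are 18 enzymes of sterol synthesis, 5 regulators of the sterol-sensing system, 3 genes of sterol transport and 8 genes of fatty acid synthesis and modification. Of these, 33 had a probe named in the platform annotation, out of 20046 named genes. FDFT1, the squalene synthase, had none and was not analysed here.

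The study measured RNA on 14 Illumina bead arrays of prostate cancer cell lines to ask what the transcription factor FoxA1 controls with and without androgen. In LNCaP, an androgen-sensitive line, a FoxA1 shRNA (shFoxA1) and a control shRNA (shCtrl) were each measured on 4 arrays: replicates 1 and 2, whose titles name no medium, 1 array with R1881, a synthetic androgen, and 1 in hormone-deprived medium. The growth protocol attached to all 8 of these arrays gives charcoal-stripped medium for 3 days and then 1 nM R1881 for 24 hours, so the medium of the numbered arrays is not settled, and the descriptions number the R1881 arrays as replicate 3. Single pairs of arrays compared LNCaP with a FoxA1 siRNA (siFoxA1) against a control siRNA (siCtrl), 22RV1 with shFoxA1 against shCtrl, and stable PC-3M cells labelled FoxA1 against stable PC-3M control cells kept in RPMI with 10% FBS. For the siRNA and 22RV1 arrays the growth protocol gives the same steps, 3 days of charcoal-stripped medium and 24 hours of 1 nM R1881, but only for some experiments, so their medium is not settled either. Whether any line is 1 clone is not stated in the labels. Nothing in the labels says that the numbered replicates came from separate cultures, so p-values measure only the spread between these arrays.

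Cells make sterols from acetyl-CoA through mevalonate, squalene and lanosterol, and make fatty acids from the same precursor through malonyl-CoA. Both routes are under the SREBP transcription factors, which the escort protein SCAP carries out of the endoplasmic reticulum when sterols are low and which the INSIG proteins hold back when sterols are high. Androgens are known to raise lipid synthesis in LNCaP cells, and malignant prostate epithelium is known for high fatty acid synthase.

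Values below are probe intensities on the log2 scale after background correction and quantile normalization, and a difference of 1 is a 2-fold change. Levels of different probes were not compared with each other. The mean deposited intensity of an array was 157 to 285 for LNCaP shRNA and 208 to 222 for PC-3M, both background-subtracted. It was 436 to 447 for siRNA and 235 to 325 for 22RV1, both raw, so raw and background-subtracted values are not compared. The FoxA1-labelled array was the dimmer in each pair except LNCaP shRNA replicate 2. In 22RV1 the mean was 235 with shFoxA1 and 325 with shCtrl, with 45.3% and 49.1% of probes detected. The part of this in the differences below was not tested. The number of arrays limits the precision of each difference. The FOXA1 probe was lower in every knockdown pair, at 10.76, 10.36, 10.92 and 11.37 on the shFoxA1 arrays (replicate 1, replicate 2, R1881, hormone-deprived), against 11.87, 11.64, 11.91 and 12.11 on the shCtrl arrays. It was 8.89 on the PC-3M array labelled FoxA1, against 10.40 on its control. The title of that array names FoxA1 and not whether it was raised or lowered. Whether the 1 FOXA1 probe reads an introduced construct was not tested. All 6 luminal prostate markers were detected on the LNCaP and 22RV1 arrays except KLK2 on the hormone-deprived shCtrl array, while KLK2 and KLK3 were undetected on both PC-3M arrays. Of the 33 members, 29 were detected on all 8 LNCaP shRNA arrays, and MVK, SREBF2, STARD4 and ABCA1 on 2 to 5 of them. In such bulk samples fewer cells of a type and less RNA per cell cannot be told apart.

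Promoter sequence, 250 bases before to 50 after the start site, was available from RefSeq (GRCh38.p14) for 30 members. The promoters shown are those of NPC1 and ELOVL6, which differed the same way in the shRNA and siRNA arrays of LNCaP, and of INSIG1 and SCD, which had the lowest differences in 22RV1. They lie at chr18:23586457-23586756 (NPC1, minus strand), chr4:110198566-110198865 (ELOVL6, minus strand), chr7:155297628-155297927 (INSIG1, plus strand) and chr10:100346983-100347282 (SCD, plus strand). Capitals mark a forkhead core (TGTTTAC, read here on the other strand) in ELOVL6 and CCAAT boxes in INSIG1 and SCD.
NPC1: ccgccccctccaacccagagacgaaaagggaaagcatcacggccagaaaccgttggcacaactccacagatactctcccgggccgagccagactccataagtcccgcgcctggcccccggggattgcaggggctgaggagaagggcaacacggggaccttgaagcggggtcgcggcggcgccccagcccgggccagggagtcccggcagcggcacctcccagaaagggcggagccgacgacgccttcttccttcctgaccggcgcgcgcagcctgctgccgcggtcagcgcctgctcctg
ELOVL6: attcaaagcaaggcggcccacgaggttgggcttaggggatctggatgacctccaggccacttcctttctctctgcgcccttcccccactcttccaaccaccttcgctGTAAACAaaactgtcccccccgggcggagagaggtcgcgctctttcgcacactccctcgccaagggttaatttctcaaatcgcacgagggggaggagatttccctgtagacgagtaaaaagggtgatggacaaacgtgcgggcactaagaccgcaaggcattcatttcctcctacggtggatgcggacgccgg
INSIG1: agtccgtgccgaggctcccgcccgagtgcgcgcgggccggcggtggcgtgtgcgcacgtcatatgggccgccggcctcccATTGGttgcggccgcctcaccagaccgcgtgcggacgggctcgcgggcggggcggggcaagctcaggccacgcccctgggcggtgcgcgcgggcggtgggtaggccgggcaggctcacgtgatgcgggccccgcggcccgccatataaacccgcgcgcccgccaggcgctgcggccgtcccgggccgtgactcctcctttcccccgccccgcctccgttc
SCD: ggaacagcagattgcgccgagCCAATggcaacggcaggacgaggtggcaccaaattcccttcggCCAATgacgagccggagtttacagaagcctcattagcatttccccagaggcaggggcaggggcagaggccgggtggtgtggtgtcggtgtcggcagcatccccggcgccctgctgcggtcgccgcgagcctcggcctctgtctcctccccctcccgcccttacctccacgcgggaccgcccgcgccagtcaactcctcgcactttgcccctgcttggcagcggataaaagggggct
Both strands were searched for 3 motifs, and 0 matches of different motifs overlapped. The sterol regulatory element TCACNCCAC was in 1 of 30 member promoters, that of SREBF2 (3.33%), against 1.15% of 27305 promoters of the same length. CCAAT, the box bound by the SREBP partner NF-Y, was in 18 of 30 (60.0%), against 35.7% of all. The forkhead core was in 1 of 30, that of ELOVL6 (3.33%), against 3.41% of all. A match describes letters in this window and is not a binding site.

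In LNCaP cells with FoxA1 shRNA, most genes of sterol and fatty acid synthesis did not pass the test, and the largest change was in the sterol transporter NPC1. Of 33 members 3 passed an adjusted p of 0.05 in limma, 2 higher (NPC1 and SC5D) and 1 lower (ELOVL6), where 9.65% of all 11892 genes passed, 4.94% higher and 4.7% lower. The median member difference was -0.10, against -0.01 over all genes. The members' share of calls was near that of all genes.

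NPC1, the late endosome and lysosome protein that releases cholesterol taken up from lipoproteins, had 10.52, 11.01, 10.74 and 9.99 on the shFoxA1 arrays (replicate 1, replicate 2, R1881, hormone-deprived), against 8.88, 8.64, 9.22 and 8.86 on the shCtrl arrays. Every shFoxA1 array was above every shCtrl array, and NPC1 was the only member of 33 whose groups did not overlap, where the groups of 11.2% of all genes did not. It averaged 10.57 ± 0.43 in shFoxA1 and 8.90 ± 0.24 in shCtrl (SD, n = 4 each) and rose by 1.66 (SE 0.19, limma adjusted p = 0.00295). It passed in all 21 alternative settings run, at 1.43 to 2.00. The other transport genes did not pass: ABCA1, which exports cholesterol to apolipoproteins, was detected on 1 array of each construct, and STARD4, a carrier of sterol between membranes, on 3 of 8 arrays.

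SC5D, the sterol C5-desaturase near the end of cholesterol synthesis, had 9.81, 9.27, 9.83 and 10.17 on the shFoxA1 arrays, against 8.63, 8.83, 9.31 and 9.71 on the shCtrl arrays. It was higher in each of the 4 pairs, but the groups overlapped, with shFoxA1 replicate 2 below the R1881 and hormone-deprived shCtrl arrays. It averaged 9.77 ± 0.37 in shFoxA1 and 9.12 ± 0.49 in shCtrl (SD, n = 4 each) and rose by 0.65 (SE 0.16, limma adjusted p = 0.0352). It passed in 7 of 21 alternatives, over which the adjusted p was 0.0210 to 0.245. Leaving out shFoxA1 replicate 2, shCtrl replicate 1, shCtrl replicate 2, both replicate 1 arrays, the R1881 pair or the hormone-deprived pair ended the call, with adjusted p of 0.0577, 0.101, 0.0869, 0.0829, 0.0956 and 0.0541.

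The other 16 measured enzymes of sterol synthesis did not pass, and the median over the 17 enzymes was -0.12, with 6 above 0 and 11 below. That median rested on the replicate 1 arrays: it was -0.02 without shFoxA1 replicate 1, -0.03 without shCtrl replicate 1 and 0.03 without both. In the replicate 1 pair alone 7 of 17 were at least 1.5-fold lower and 1 higher, where 16.9% of all genes were lower and 18% higher. EBP, the sterol isomerase, was at -1.36 in that pair, FDPS, which makes farnesyl diphosphate, at -1.08, and ACAT2, the cytosolic thiolase that starts the mevalonate route, at -1.03. PMVK and SQLE, a kinase of the mevalonate route and the squalene epoxidase, were at -0.76 and -0.64, and TM7SF2 and NSDHL, enzymes of sterol ring processing, were both at -0.61. In the replicate 2 pair CYP51A1, the lanosterol demethylase, was the 1 enzyme at least 1.5-fold lower (-0.66) and HSD17B7, a sterol ketoreductase, the 1 higher (0.80), where 10.2% of all genes were lower and 11.6% higher. In the R1881 pair HSD17B7 was the 1 enzyme lower (-0.98) and 0 were higher, where 7.77% of all genes were lower and 7.08% higher. HSD17B7 was at 0.29 and 0.25 in the replicate 1 and hormone-deprived pairs. In the hormone-deprived pair 0 enzymes were past 1.5-fold, where 4.18% of all genes were lower and 4.4% higher. The replicate 1 pair also had the most genes past 1.5-fold, 34.8% of all, against 21.7% in the replicate 2 pair, 14.8% with R1881 and 8.58% in hormone-deprived medium, and the part of that in these decreases was not tested. HSD17B7 and FDPS have near-identical pseudogene copies, so their signals are uncertain.

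None of the 5 regulators passed, and their differences ran between -0.32 and 0.12 with a median of 0.03. INSIG1, which retains SCAP and is itself an SREBP target, was at -0.83, -0.11, -0.36 and 0.01 in the replicate 1, replicate 2, R1881 and hormone-deprived pairs. INSIG2, its paralogue, had 8.99, 7.58, 7.21 and 8.17 on the shFoxA1 arrays, against 7.69, 7.80, 7.63 and 8.71 on the shCtrl arrays, so only replicate 1 was higher. SREBF1, the gene of the SREBP factor of fatty acid synthesis, differed by -0.07 to 0.19 over the 4 pairs.

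ELOVL6, which elongates palmitate to stearate, had 7.61, 7.89, 6.93 and 7.56 on the shFoxA1 arrays, against 8.40, 7.92, 7.89 and 8.29 on the shCtrl arrays. It was lower in each of the 4 pairs, by only 0.02 in replicate 2, whose shFoxA1 array equalled the lowest shCtrl array to 2 decimals. It averaged 7.50 ± 0.41 in shFoxA1 and 8.12 ± 0.26 in shCtrl (SD, n = 4 each) and fell by 0.63 (SE 0.16, limma adjusted p = 0.0460), with a second probe at -0.81. It passed in 7 of 21 alternatives, over which the adjusted p was 0.0281 to 0.335. Leaving out shFoxA1 replicate 1, shFoxA1 replicate 2, shCtrl replicate 1, both replicate 1 arrays, the R1881 pair or the hormone-deprived pair ended the call, with adjusted p of 0.0803, 0.0584, 0.125, 0.120, 0.153 and 0.110.

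The other 7 fatty acid genes did not pass over all arrays, and the list median was 0.09, with 5 above 0 and 3 below. It was -0.02 without shFoxA1 replicate 1, -0.008 without shCtrl replicate 2 and 0.004 without the R1881 pair, so its sign turned with 1 array. FADS2, the delta-6 desaturase of polyunsaturated fatty acids, had 7.73, 7.73, 6.81 and 5.37 on the shFoxA1 arrays, against 6.71, 6.25, 6.27 and 5.80 on the shCtrl arrays. It was higher in 3 pairs and lower in the hormone-deprived pair, and its difference of 0.65 had an adjusted p of 0.150 in limma. ELOVL5, which elongates the products of FADS2, had 11.43, 11.11, 11.42 and 10.47 on the shFoxA1 arrays, against 10.01, 10.47, 11.49 and 9.74 on the shCtrl arrays. It was higher in 3 pairs and close to equal with R1881, and its difference of 0.68 had an adjusted p of 0.0718. ACACA, the acetyl-CoA carboxylase that commits carbon to fatty acids, was below 0 in all 4 pairs, from -1.00 in replicate 1 to -0.08 in hormone-deprived medium (-0.42 over all arrays, limma adjusted p = 0.127). FASN (0.08), SCD (0.11), FADS1 (0.10) and ACLY, the ATP citrate lyase that supplies cytosolic acetyl-CoA (-0.12), were the other 4, with adjusted p of 0.620 to 0.830.

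**Figure D1:**
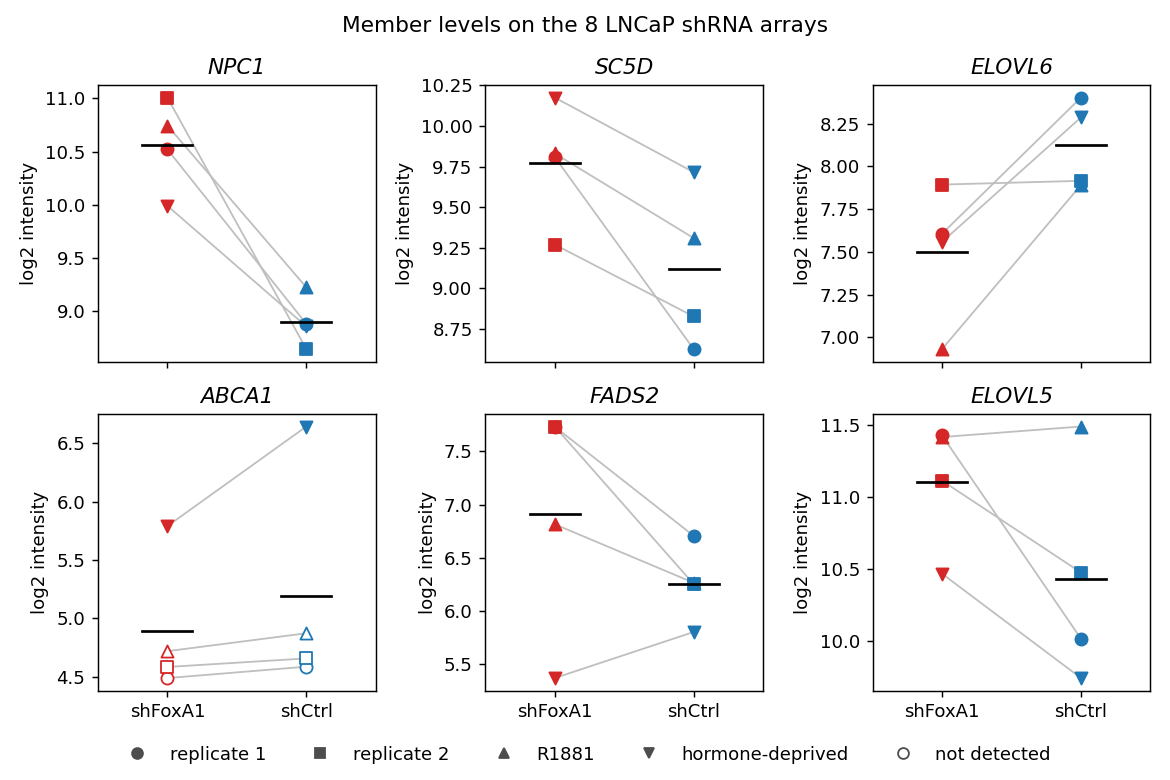
Log2 intensity of 6 members on each LNCaP shRNA array, with shFoxA1 left of shCtrl. Lines join arrays of 1 pair, bars are means of 4 arrays and open symbols are undetected probes. NPC1 is the 1 gene shown whose groups do not overlap, and FADS2 is reversed in the hormone-deprived pair.

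With median scaling in place of quantile normalization the median of all genes moved to -0.15 and 6 members passed, 1 higher (NPC1) and 5 lower (ACACA, ACAT2, EBP, ELOVL6 and TM7SF2), where SC5D was 0.42 higher with an adjusted p of 0.188. The enzyme median was then -0.34 and the fatty acid median -0.15. The share of all genes passing in that setting is not given here, so the 6 members are not read against it. Counting signs, 4 members were higher in all 4 pairs (MSMO1, SC5D, SCAP and NPC1) and 7 lower (MVK, FDPS, ACAT2, TM7SF2, ABCA1, ACACA and ELOVL6), or 11 of 33, where 36% of all genes had 1 sign. Of these, ABCA1 was detected on only 2 of the 8 arrays. MVK was detected on 5, on neither array of the replicate 2 pair, and was at -0.002 in the R1881 pair. Replicates 1 and 2 were matched by number alone in these counts. SCAP was at 9.43 in shFoxA1 replicate 1, below 9.45 in shCtrl replicate 2, so its place here rested on that match.

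Among 18 further genes of sterol handling, 15 were measured, 0 rose and 2 fell, where 4.94% of all genes rose and 4.7% fell. TMEM97, a sterol-responsive partner of NPC1, had 9.55, 10.16, 10.17 and 10.08 on the shFoxA1 arrays, against 11.00, 11.05, 10.90 and 10.61 on the shCtrl arrays. Its groups did not overlap, and it fell by 0.90 (SE 0.18, limma adjusted p = 0.0196). LBR, the lamin B receptor with sterol reductase activity, averaged 6.00 ± 0.47 in shFoxA1 and 6.58 ± 0.47 in shCtrl (SD, n = 4 each). It fell by 0.59 (SE 0.13, limma adjusted p = 0.0276). Among 18 further genes of fatty acid metabolism 17 were measured. Against the same shares of all genes, 0 fell and 1 rose. That was THRSP, a lipogenic nuclear protein, with 7.19, 7.92, 7.47 and 5.67 on the shFoxA1 arrays, against 6.27, 6.50, 5.81 and 4.98 on the shCtrl arrays (1.17 higher, SE 0.20, adjusted p = 0.0143). It was higher in all 4 pairs, while its groups overlapped, with the hormone-deprived shFoxA1 array below 3 of the shCtrl arrays. The calls of TMEM97, LBR and THRSP were not followed through the alternative settings.

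Markers of other cells were read on the same arrays. Of 6 leukocyte and endothelial markers CD68, of macrophage lysosomes, rose by 0.63 (limma adjusted p = 0.0499) and VWF fell by 0.97 (adjusted p = 0.00794), while PTPRC, CD3E and CDH5 were undetected on all 8 arrays. The summed linear intensity of that list was 512 to 889.6 on the shFoxA1 arrays and 353.8 to 887 on the shCtrl arrays. Between 0 and 3 of 5 fibroblast markers were detected per array, with sums of 159.6 to 190.3 for shFoxA1 and 145 to 178 for shCtrl, and COL1A2 and COL3A1 were undetected on all 8. Of 6 adipocyte and hepatocyte markers 2 or 3 were detected, with sums of 487 to 799.5 for shFoxA1 and 418 to 898 for shCtrl, and PLIN1 and APOA2 were undetected on all 8. The part of these markers in the differences above was not tested.

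The R1881 arrays asked how these genes respond to androgen with FoxA1 low and with FoxA1 present. Over both lines 1 of 33 members passed, the cholesterol exporter ABCA1, which was lower, where 0.555% of all genes passed, 0.177% higher and 0.378% lower. ABCA1 entered the test only through the hormone-deprived arrays, where it was high. The median member difference, R1881 minus hormone-deprived, was 0.07, and it was 0.02 for the sterol enzymes and 0.30 for the fatty acid genes, against -0.001 over all genes. Leaving out 1 R1881 or hormone-deprived array gave enzyme medians of -0.08 to 0.12, member medians of 0.01 to 0.12 and fatty acid medians of 0.19 to 0.50. With the R1881 arrays taken as replicate 3 the member median was -0.15 and the enzyme median -0.26. FKBP5, an androgen-induced gene, rose by 2.49 (SE 0.23, limma adjusted p = 0.00564). KLK3 was 1.57 higher (limma adjusted p = 0.0841) and KLK2 1.46 higher (0.0910), and these 2 androgen checks did not pass.

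ABCA1 was at 4.72 (shFoxA1) and 4.87 (shCtrl) with R1881, against 5.79 (shFoxA1) and 6.64 (shCtrl) in hormone-deprived medium. It was undetected on both R1881 arrays and on all 4 numbered arrays, and detected only in hormone-deprived medium. Against the lowest detected signal it was at least 2.15-fold lower with R1881, at least 1.58-fold in shFoxA1 and at least 2.92-fold in shCtrl cells. Its limma adjusted p of 0.0377 (0.0116 to 0.310 over 18 alternatives, 0.0889 with no filter) came from 6 undetected arrays and the 2 that took it past the filter, so it is given as a description. Leaving out shFoxA1 replicate 2, shCtrl replicate 2, the shFoxA1 R1881 array, the shCtrl R1881 array or the shCtrl hormone-deprived array ended the call, with adjusted p of 0.0684, 0.0681, 0.248, 0.310 and 0.171. Of the further genes, 0 of 15 of sterol handling and 0 of 17 of fatty acid metabolism passed, where 0.555% of all genes did.

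In shFoxA1 cells, with 1 array a side and no test, 5 members were at least 1.5-fold higher with R1881 and 5 lower of 32 detected, where 5.96% of all genes were higher and 6.64% lower. FADS2 was 6.81 with R1881, against 5.37 in hormone-deprived medium, and FADS1, the delta-5 desaturase that acts after it, was 8.20 with R1881 against 7.17 without. ELOVL5 was 11.42 with R1881 against 10.47 without, so these polyunsaturated fatty acid genes were higher together, by 1.44, 1.02 and 0.95. NPC1 was 10.74 with R1881 and 9.99 without, and DHCR7, a reductase at the end of cholesterol synthesis, was 8.71 with R1881 and 8.02 without. INSIG2 was lower, at 7.21 with R1881 and 8.17 without, and TM7SF2 was 10.29 with R1881 and 10.98 without. ELOVL6 was at -0.63 and HSD17B7 at -0.60, and ABCA1 is given above. With median scaling the member median was 0.21, against 0.07 over all genes.

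In shCtrl cells, again without a test, 2 of 33 members were at least 1.5-fold higher with R1881 and 3 lower, where 11.9% of all genes were past 1.5-fold, 5.94% higher and 5.95% lower. ELOVL5 was 11.49 with R1881, against 9.74 in hormone-deprived medium, a difference of 1.75. HSD17B7 was 11.57 with R1881 and 10.93 without, and FDPS, the next highest, was 8.54 with R1881 and 8.02 without. INSIG2 was 7.63 with R1881 and 8.71 without, and TM7SF2 was 10.38 with R1881 and 11.20 without, so both were lower in each construct. With median scaling the median over all genes was 0.33 and that of the members 0.43, and TM7SF2 was at -0.22. Over both lines ELOVL5 was 1.35 higher (SE 0.29, limma adjusted p = 0.0996), INSIG2 was at -1.02 (adjusted p = 0.413) and TM7SF2 at -0.76 (adjusted p = 0.181).

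**Figure D2:**
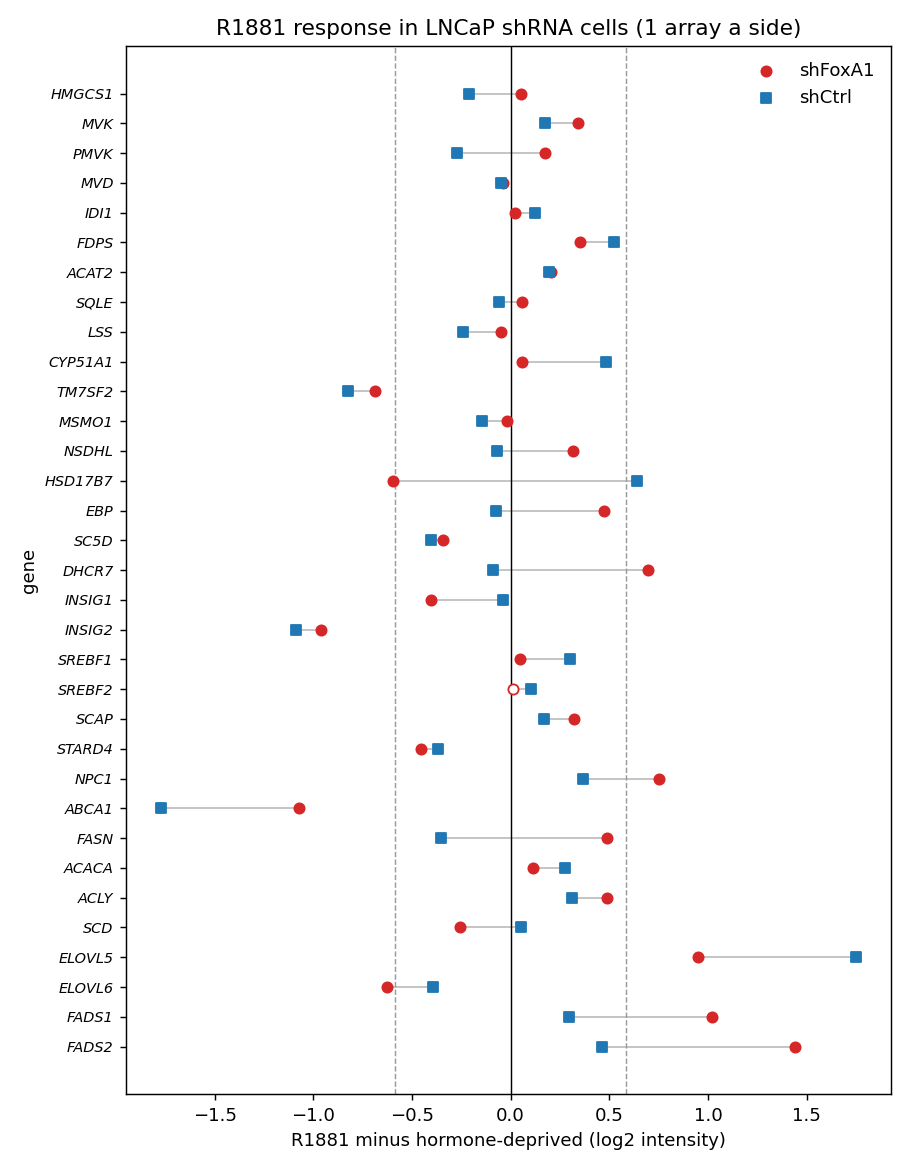
Difference between the R1881 and the hormone-deprived array (log2 intensity) for each of the 33 members in shFoxA1 (red circles) and shCtrl (blue squares) cells, with 1 array a side. Dashed lines mark 1.5-fold and the open symbol a gene undetected on both arrays. FADS2, FADS1 and ELOVL5 lie right of 1.5-fold in shFoxA1 cells, ELOVL5 and HSD17B7 in shCtrl cells, and ABCA1 farthest left, where its R1881 arrays were undetected.

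The difference in response between the constructs was tested with the spread of the numbered replicates. Of 33 members 0 passed in limma, as did 0% of all genes, while 1 member and 1.6% of all genes had an unadjusted p below 0.05. That member was HSD17B7, which was 0.60 lower with R1881 in shFoxA1 cells and 0.64 higher in shCtrl cells, a difference of -1.24 (95% interval -2.20 to -0.28, unadjusted p = 0.0197). FADS2 differed by 0.98 (-0.05 to 2.01) and FASN, the fatty acid synthase, by 0.84 (-0.06 to 1.74). FASN had 12.14 with R1881 and 11.65 without in shFoxA1 cells, against 11.25 with and 11.60 without in shCtrl cells. These intervals rest on 2 residual degrees of freedom and 4.15 prior ones, which limma takes from the spread over all probes, and are wide.

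The siRNA pair lowered FoxA1 in LNCaP by another route, with 1 array a side and no test. FOXA1 was 10.79 with siFoxA1, against 11.60 with siCtrl. Of 31 detected members 2 were at least 1.5-fold higher and 1 lower, where 7% of all genes were higher and 6.41% lower. NPC1 was 10.51 with siFoxA1, against 9.16 with siCtrl, a difference of 1.35. FADS2 was 8.37 with siFoxA1 against 7.11 with siCtrl, and ELOVL6 was 6.27 with siFoxA1 against 6.89 with siCtrl. NPC1 and ELOVL6 thus lay on the same side as in the LNCaP shRNA fit, and FADS2 on the side of 3 of its 4 pairs.

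Below 1.5-fold in the siRNA pair, INSIG2 was 7.18 with siFoxA1 against 6.62 with siCtrl, and the lowest enzymes were EBP (10.38 with siFoxA1 against 10.85 with siCtrl) and ACAT2 (10.77 with siFoxA1 against 11.19 with siCtrl). The sterol enzymes had a median of -0.002 and the fatty acid genes of 0.25, against -0.03 over all genes. THRSP was 8.01 with siFoxA1 against 6.11 with siCtrl and LBR, read there from another probe, 5.97 with siFoxA1 against 6.81 with siCtrl. TMEM97, below 1.5-fold, was 10.46 with siFoxA1 against 11.03 with siCtrl, and these 3 lay on the side of the shRNA fit. Of 16 detected further sterol genes 2 were higher in the siRNA pair, OSBP (0.66) and ABCG1 (0.67), and 1 lower, LBR. Of all genes 7% were higher there and 6.41% lower. CD68 was 1.06 higher and VWF 1.09 lower in this pair, and their part was not tested.

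In 22RV1, a castration-resistant line, SCD, INSIG1, SREBF1 and several sterol enzymes were lower with shFoxA1 in the single pair measured. FOXA1 was 10.70 with shFoxA1, against 11.81 with shCtrl. Of 32 detected members 8 were at least 1.5-fold lower and 1 higher, where 7.68% of all genes were lower and 7.27% higher, with 1 array a side and no test. SCD, the stearoyl-CoA desaturase that makes monounsaturated fatty acids, was 10.91 with shFoxA1, against 12.32 with shCtrl.

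Among the regulators in 22RV1, INSIG1 was 9.65 with shFoxA1, against 10.94 with shCtrl, and SREBF1 was 8.74 with shFoxA1 against 9.79 with shCtrl. The lower sterol enzymes were spread over the pathway: ACAT2 (-0.97), IDI1, the isopentenyl diphosphate isomerase (-0.80), SQLE (-0.61), MSMO1, the C4-methyl sterol oxidase (-0.85), and EBP (-1.03). HMGCS1, the mevalonate route synthase, was at -0.53. In all 13 of 17 enzymes were below 0, where 6769 of 13236 genes were. The enzyme median was -0.37, against -0.01 over all genes. That enzyme median was -0.22 with no background correction. HSD17B7 was the 1 member past 1.5-fold on the other side, at 12.23 with shFoxA1 against 11.59 with shCtrl, followed by TM7SF2 (10.89 with shFoxA1 against 10.33 with shCtrl) and FASN (12.44 with shFoxA1 against 12.03 with shCtrl). FASN and ACACA were thus not lower where SCD was.

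NPC1 was 7.55 with shFoxA1 in 22RV1, against 7.72 with shCtrl, and FADS2 was 4.88 with shFoxA1 against 5.01 with shCtrl, so neither was higher as in LNCaP. ELOVL6 was 9.22 with shFoxA1 against 9.75 with shCtrl. The mean over the 3 MSMO1 probes was -0.38, smaller than that of its brightest probe. With median scaling the median over all genes was -0.45 and that of the members -0.78, the enzyme median was -0.89, and HSD17B7 was at 0.10. Of 6 adipocyte and hepatocyte markers 3 were detected on each array, and ALB, the liver's serum albumin, was 7.88 with shFoxA1, against 12.35 with shCtrl. ALB was the 1 past 1.5-fold of the 4 detected on either array. The list median was 0.18, with 2 above 0 and 2 below. The summed intensity of that list, ALB included, was 939 with shFoxA1 and 5722 with shCtrl. PLIN1 and APOA2 were undetected on both, and the part of this list in the lipid genes was not tested.

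**Figure D3:**
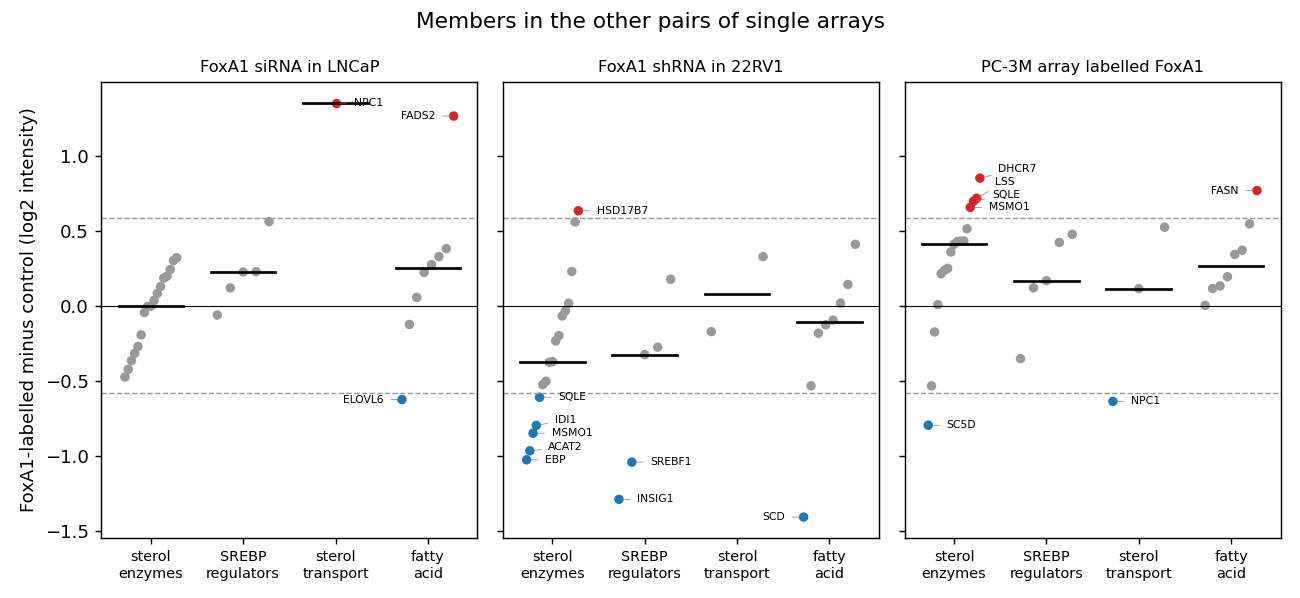
Difference of the FoxA1-labelled array from its control (log2 intensity) for detected members by pathway arm in the siRNA, 22RV1 and PC-3M pairs, with 1 array a side. Black lines are medians, dashed lines 1.5-fold, and red and blue points members at least 1.5-fold higher or lower. The 22RV1 enzymes have a median of -0.37 and the PC-3M enzymes one of 0.41.

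The PC-3M pair was labelled as FoxA1 against control, and the array labelled FoxA1 had the lower FOXA1 signal, so directions below belong to the label and not to FoxA1. On the array labelled FoxA1, 5 of 33 members were at least 1.5-fold higher and 2 lower, where 5.19% of all genes were higher and 5.74% lower. DHCR7 was 8.84 on the array labelled FoxA1, against 7.99 on its control, and FASN was 11.82 on the array labelled FoxA1, against 11.05 on the control. With the array labelled FoxA1 again against the control, LSS, the lanosterol synthase, was 7.12 against 6.40, SQLE 10.50 against 9.80 and MSMO1 9.53 against 8.87. Over the probes of each gene the mean difference was 0.28 for LSS and 0.19 for MSMO1, less than for the brightest probe.

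The lower members on the PC-3M array labelled FoxA1 were SC5D, at 8.44 against 9.24 on the control, NPC1, at 7.82 against 8.45, and, below 1.5-fold, HSD17B7, at 9.95 against 10.48. In all 28 of 33 members were above 0, 14 of 17 enzymes and 8 of 8 fatty acid genes among them, where 5795 of 11358 genes were. The member median was 0.34, against 0.01 over all genes, or 0.23 with an offset of 50. Of 5 fibroblast markers 4 were detected on the array labelled FoxA1 and 2 on its control, with COL1A2 at 7.62 on the array labelled FoxA1 and 9.67 on the control, and DCN at 8.46 on the array labelled FoxA1 and 4.46 on the control. Their part was not tested.

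Set side by side over the 7 pairs, NPC1 was above 1.1 in all 5 LNCaP pairs, -0.17 in 22RV1 and -0.64 on the PC-3M array labelled FoxA1. ELOVL6 was below 0 in the 5 LNCaP pairs and in 22RV1, and above 0 on the PC-3M array labelled FoxA1. SC5D was above 0 in the 5 LNCaP pairs and in 22RV1 and at -0.80 in PC-3M. INSIG1, SREBF1 and SCD were past 1.5-fold lower together in 22RV1, while in the siRNA pair they were at 0.23, 0.23 and 0.22. In the LNCaP shRNA fit they were at -0.32, 0.06 and 0.11 and did not pass. INSIG1 was past 1.5-fold lower in the LNCaP shRNA replicate 1 pair as well (-0.83). These differences between lines were not tested, since each of the other pairs has 1 array a side.

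**Figure D4:**
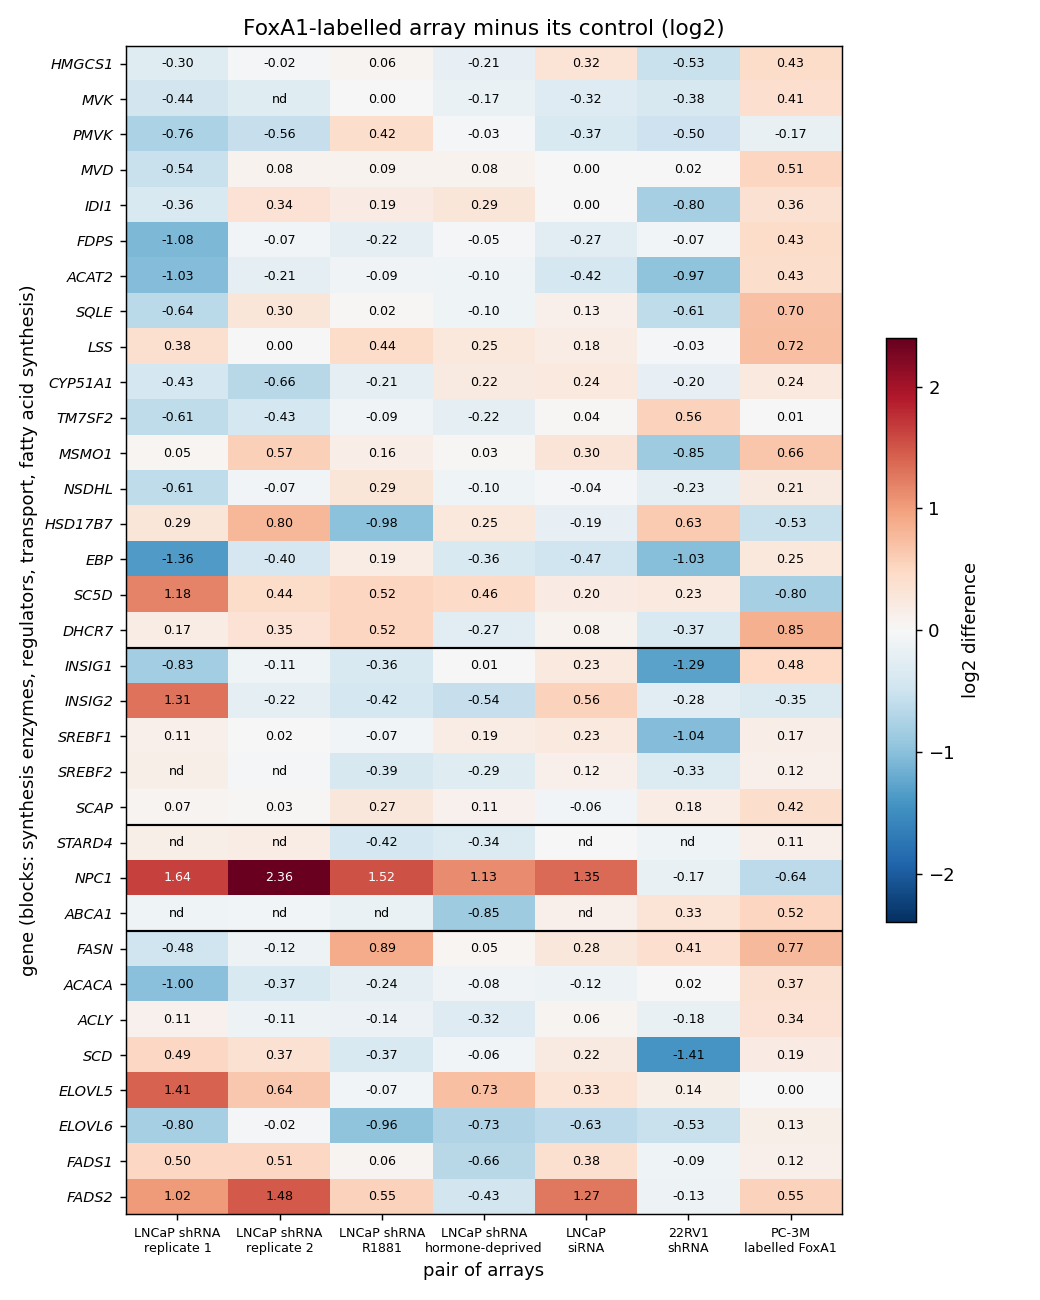
Log2 difference of the FoxA1-labelled array from its control for the 33 measured members (rows) in 7 pairs of arrays (columns), with red for higher and blue for lower and nd where the brighter array was undetected. NPC1 is red in the 5 LNCaP columns, the 22RV1 column has most of its blue among the sterol enzymes, INSIG1, SREBF1 and SCD, and the PC-3M column is mostly red.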

How the data were processed

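Probe values came from GenomeStudio, whose version is not given, per the submitters' processing notes. The deposited tables of the LNCaP shRNA and PC-3M arrays hold background-subtracted intensity with a detection p-value per probe, per the file headers, and that of the siRNA and 22RV1 arrays raw intensity. In this last table the deposited detection columns hold whole numbers and were left aside. A deposited matrix of normalized intensity was an alternative source. LNCaP shRNA arrays were run at another core facility than the rest, per the labels, and the 3 tables were processed separately.

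Tools were R 4.3.3 and limma 3.58.1. Normal-exponential background correction (offset of 16), log2 and quantile normalization were applied. A probe was detected at p below 0.05, or, without detection p-values, above the background mode plus 1.645 SD. Of the 47323 probes, 30113 carried 1 gene symbol, 8 several and 17202 none; each gene was read from its brightest probe. Probes detected on at least 2 of 8 arrays (22177, for 11892 genes) entered lmFit and eBayes with construct and 3 medium labels as terms, two-sided, with Benjamini-Hochberg adjustment over all genes. The difference in response came from a fit of 6 group means. With 1 array a side, members counted when detected on the brighter array with a difference of 1.5-fold or more. Bounds ("at least") set the brighter mean against the lowest detected signal. The fit was checked on simulated data.

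Full values are given for FOXA1, members past the test, the 3 largest differences each way in each single pair, and other pathway genes past the test. LBR is the exception, given by its group means in the knockdown. FADS2, ELOVL5, FASN, INSIG1 and INSIG2 in the knockdown were added after their values were seen. The members and gene lists were chosen with earlier results of these data known. The same-numbered arrays' deviations correlated at -0.127, so the numbers were not taken as pairs in the fit. Differences given by pair match the replicates by number and are descriptions.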

Additional observations from a re-analysis of the deposited data

Results flagged for a closer look

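Members were singled out where the 22RV1 pair moved to the other side of 0 from every LNCaP shRNA pair, among those detected on all 8 LNCaP shRNA arrays and both 22RV1 arrays. ABCA1, detected on 2 of those 8, had the same pattern, at 0.33 in 22RV1. TM7SF2 was at 0.56 in 22RV1 with shFoxA1, while all 4 LNCaP pairs were below 0. MSMO1 was at -0.85, against 4 LNCaP pairs above 0. NPC1 was at -0.17, against LNCaP differences of 1.13 to 2.36. ACACA was at 0.019 in 22RV1, against 4 LNCaP pairs below 0, and lies close to 0. These differences between lines were not tested, since 22RV1 has 1 array per construct.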

How the results depend on the processing

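Of the 33 members, 3 passed in the LNCaP knockdown fit. The count was 1 (NPC1) with no background correction, no filter, the deposited matrix, no medium term or the R1881 arrays as replicate 3, and 6 with median scaling. It was 1 with each pair as a replicate block and 3 with the numbers crossed, chosen after seeing the data. Leaving out arrays gave 1 to 2. The count of all genes passing was 114 to 1709, against 1147. The R1881 response called 1 member, ABCA1. It called 0 with no background correction, an offset of 50, no filter, the mean over probes or the deposited matrix. It also called 0 with the spread taken over 1 probe per gene, an added setting, and with detection on all 8 arrays. ABCA1 was detected on 2 arrays, so the filter on all 8 left it out and could not test its call. Leaving out arrays gave 0 to 3 members for the R1881 response. The difference in response called 0 members in every setting run. Of single pairs, the R1881 response in shFoxA1 cells had 10 members past 1.5-fold and 3 past 2-fold. The response in shCtrl cells had 5, 3 past 2-fold and 16 with median scaling. The 22RV1 pair had 9, 4 past 2-fold and 23 with median scaling. The PC-3M pair had 7, 0 past 2-fold, and 11 with no background correction or the deposited matrix. The shares of all genes in these other settings are not given here, so the counts show only how the calls moved. Where a count moved, the cause was not tested. The single genes recomputed kept their direction in each setting, but medians near 0 did not. The knockdown member median of -0.10 was 0.03 over members detected on all 8 arrays, the knockdown fatty acid median of 0.09 was -0.15 with median scaling, and the R1881 member median of 0.07 was -0.15 with the R1881 arrays as replicate 3. Signal near background limits ABCA1, MVK, SREBF2 and STARD4.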
